A study of Homo sapiens with 16 samples.

Results

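The experiment compared Hs343T cells transfected with an siRNA labelled as targeting RECK (siRECK) with Hs343T cells transfected with a scrambled siRNA (siSCR), on 2 arrays each. These 4 arrays were chosen by their titles from the 16 arrays of the series. Hs343T is a breast cancer cell line obtained from the ATCC that the submitters class as poorly invasive. Hs606T, a second line of that class, carries the same pair of siRNA labels on 4 further arrays. The other 8 arrays came from 2 invasive lines with a RECK construct or an empty vector, and here they only helped to estimate the spread between arrays. The labels give neither the siRNA sequences or doses nor the time after transfection. Nothing in them ties the replicate arrays to different cultures. The p-values then reflect array-to-array spread alone, possibly a technical one.

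RNA was read on Affymetrix U133 2.0 arrays, and each value is a log2 level of one probe set on one array. A difference is the mean level on the arrays labelled siRECK minus the mean on those labelled siSCR, so that 1 unit is a doubling. Levels of different probe sets are not comparable with each other, and only differences are set side by side between genes. Differences were tested with limma over 11963 genes, p-values were adjusted by the Benjamini-Hochberg method over all of them, and "passed" means an adjusted p under 0.05. There were no detection calls, so a level below the lower quartile of the genes on its array (5.04 to 5.10 on these 4 arrays) is treated as not distinguishable from background. Arrays of one group correlated at 0.997 in siSCR and at 0.997 in siRECK over all probe sets, against a mean of 0.972 between the groups. The 3' minus 5' difference of GAPDH, a sign of RNA integrity, was 0.36 and 0.39 on the siSCR arrays and 0.43 and 0.48 on the siRECK arrays.

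The cell type was checked against markers. All 12 measured fibroblast markers lay above the lower quartile on these arrays, with median levels of 12.2 on both siSCR arrays and 11.7 on both siRECK arrays. Of 13 epithelial markers, the defining genes EPCAM, CDH1 and GATA3 lay below it in both groups, whereas the keratins KRT18 and KRT19 read 10.2 and 9.8 on the siSCR arrays. The other 10 epithelial markers lay above it. The labels call Hs343T a breast cancer line, and EPCAM and CDH1 RNA could not be told from background in it. In the comparison KRT14 (2.30) and MUC1 (0.80) passed higher and KRT18 (-1.08), KRT19 (-0.92) and KRT8 (-0.64) lower, as did the fibroblast markers FAP (-0.99), PDGFRA (-0.94) and POSTN (-0.73). Of 8 leukocyte markers 4 lay below the lower quartile in both groups, among them PTPRC and LYZ, and none of the 8 passed in the comparison. None of 3 dendritic and plasmacytoid cell markers passed either.

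RECK, the target named by the siRNA and a lipid-anchored surface protein that restrains matrix metalloproteinases, went against the labels. Its brightest probe set read 6.07 and 5.52 on the arrays labelled siSCR and 11.31 and 11.24 on those labelled siRECK. RECK RNA was therefore higher, not lower, under the RECK siRNA label, by 5.48 (SE 0.16; adjusted p = 1.28e-10). A second probe set, of a kind that may cross-hybridise, read 6.09 and 6.30 against 6.66 and 6.66, and the third lay below the lower quartile on all 4 arrays. In Hs606T the brightest probe set read 8.74 and 8.65 with siSCR and 11.17 and 11.02 with siRECK, in the same direction. Whether the 2 labels were exchanged was not tested. Groups are therefore named below as the arrays labelled siRECK and siSCR, every direction is that of the label, and every rise would be a fall, and every fall a rise, if they had been.

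**Figure D1:**
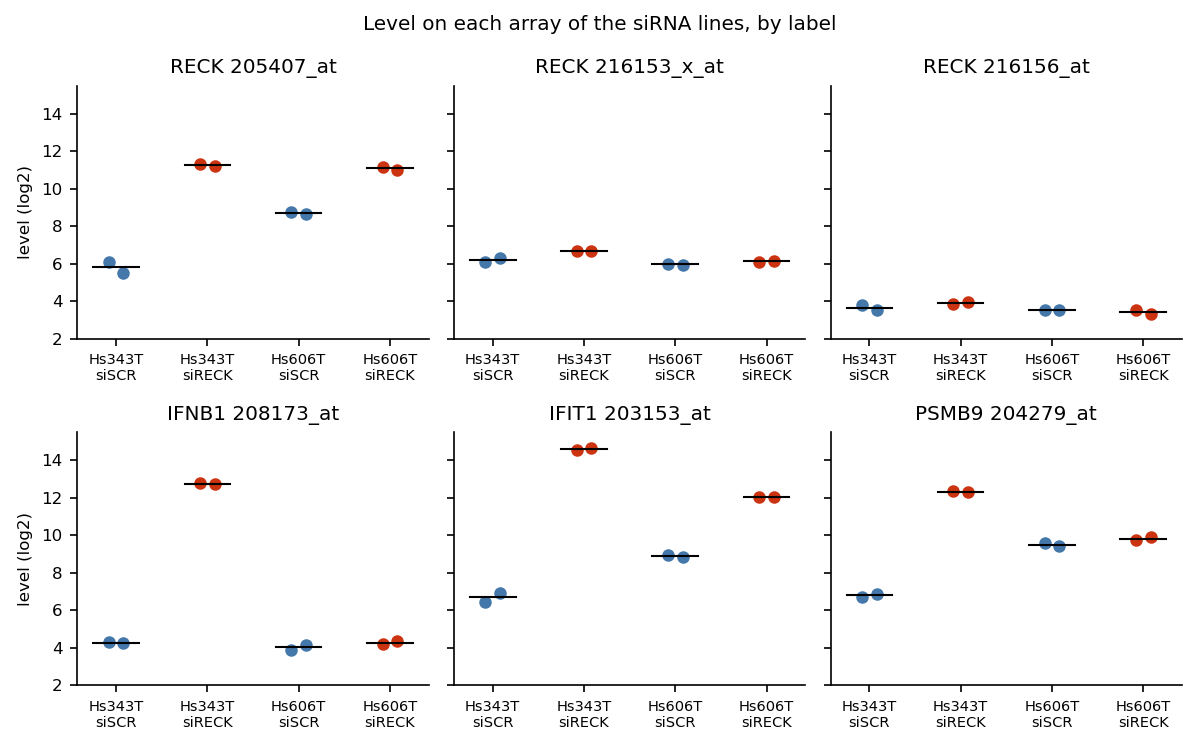
Log2 level (vertical axis) of the 3 RECK probe sets and of IFNB1, IFIT1 and PSMB9 on each array of the siRNA lines (points) with group means (bars), by label. RECK on its brightest probe set was higher on the siRECK arrays of both lines, whereas IFNB1 rose to 12.80 and 12.73 in Hs343T and read 4.21 and 4.33 with siRECK in Hs606T.

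Interferon beta is a secreted antiviral protein that fibroblasts and many other cells make when sensors such as RIG-I, MDA5 and TLR3 meet double-stranded RNA. Secreted interferon binds the receptor pair IFNAR1 and IFNAR2, whose JAK kinases activate STAT proteins, and these enter the nucleus with IRF9 and bind the interferon-stimulated response element. The genes switched on there degrade RNA, block translation, present antigens and attract lymphocytes, and some of them are the sensors themselves.

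Expression differed widely between the groups. Of 11963 genes, 3511 passed (29.3%), of which 1432 were higher (12.0%) and 2079 lower (17.4%) on the arrays labelled siRECK, and 4538 had an unadjusted p under 0.05. The median difference over all genes was -0.06. Each count of list members given below is to be read beside these shares of 12.0% higher and 17.4% lower. Falls were more numerous and smaller: 171 rises and 30 falls were at least 4-fold, and 54 rises and 0 falls at least 16-fold. Of those 54 genes, 18 lay below the lower quartile on both siSCR arrays, so that their folds start from levels that cannot be told from background. For such genes printed differences and errors are those of the measured values. A lower bound, written "at least", sets each siSCR array at its lower quartile.

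The promoters of a few strong responders are printed here because they carry the interferon-stimulated response element, searched as GAAA, any 2 bases and GAAA on either strand. Each stretch is the 240 bases before a gene's start, 5' to 3' on the gene's strand, from RefSeq on GRCh38.p14. Capitals mark the matches. IFIT1 (chr10:89392383-89392622, plus strand), ISG15 (chr1:1013257-1013496, plus strand), IFIH1 (chr2:162318685-162318924, minus strand) and CXCL10 (chr4:76023498-76023737, minus strand) are an RNA-binding effector, a ubiquitin-like modifier, the sensor MDA5 and a chemokine.
IFIT1: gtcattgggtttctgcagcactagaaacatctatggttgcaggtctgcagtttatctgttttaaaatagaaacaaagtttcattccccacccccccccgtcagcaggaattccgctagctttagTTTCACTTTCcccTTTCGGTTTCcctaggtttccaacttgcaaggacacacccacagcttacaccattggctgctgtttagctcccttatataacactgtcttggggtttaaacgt
ISG15: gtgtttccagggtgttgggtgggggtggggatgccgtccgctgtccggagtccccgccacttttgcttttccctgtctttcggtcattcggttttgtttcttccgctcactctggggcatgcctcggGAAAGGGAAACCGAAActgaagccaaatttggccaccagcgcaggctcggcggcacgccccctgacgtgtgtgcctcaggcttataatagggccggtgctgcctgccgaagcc
IFIH1: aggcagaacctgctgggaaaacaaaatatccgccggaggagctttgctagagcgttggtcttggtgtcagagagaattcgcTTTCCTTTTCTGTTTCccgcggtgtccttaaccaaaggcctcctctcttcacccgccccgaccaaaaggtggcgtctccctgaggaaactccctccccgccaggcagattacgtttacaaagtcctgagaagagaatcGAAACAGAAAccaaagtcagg
CXCL10: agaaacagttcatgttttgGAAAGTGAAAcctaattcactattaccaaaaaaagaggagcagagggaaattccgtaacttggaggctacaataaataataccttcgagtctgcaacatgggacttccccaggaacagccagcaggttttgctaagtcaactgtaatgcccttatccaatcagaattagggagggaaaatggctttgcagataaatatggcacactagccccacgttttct
In IFIT1 there were 2 matches, from 116 to 107 and from 103 to 94 bases before the start. The 2 matches of ISG15 overlap within 113 to 98 bases before it. IFIH1 held 3 matches, 2 of them overlapping and 1 ending 12 bases before the start. The single match of CXCL10 began 221 bases before the start.

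Windows from 250 bases before to 50 after a start were searched for every gene of the RefSeq table, and a gene counted if any of its starts held the motif. The response element was in 4.38% of 27305 genes, and in 4.13% of the 9563 tested genes that the table holds. Of the 54 genes that passed with a rise of at least 16-fold, 37 were matched and 25 held it (67.6%). Among list members that were matched, it was in 18 of 24 antiviral effectors (75%), 4 of 5 IFIT and OAS genes (80%), 10 of 18 genes of class I antigen presentation (55.6%) and 2 of 17 chemokines (11.8%). A kappa B site, searched as GGG, any 2 bases and TTTCC on either strand, was in 2.33% of all genes, in 6 of 17 chemokines (35.3%) and in 8 of 14 genes of the NF-kB pathway (57.1%). These are matches of letters and were not tested as binding sites.

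The interferon gene that moved was IFNB1. It read 4.30 and 4.22 on the arrays labelled siSCR and 12.80 and 12.73 on those labelled siRECK, at least 203-fold higher (measured difference 8.50; SE 0.11; adjusted p = 1.55e-13). On the siSCR arrays it lay below the lower quartile, and on the siRECK arrays far above it. Of 14 measured interferon genes, 4 passed higher and 0 lower, with a median of 0.11, and 12 lay below the lower quartile in both groups. IFNA1, the alpha interferon with the largest difference, read 3.73 and 3.51 against 4.90 and 4.45. IFNA16 and IFNW1 differed by 0.41 and 0.30 at levels below the quartile, and neither call held without each single array: 2 members passed without the second siRECK or the second siSCR array. Interferon alpha genes are near copies of each other, so a probe set may read several. IFNG, encoding the interferon of T and NK cells, differed by -0.19 (adjusted p above the threshold) and was below the quartile.

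Neither receptor gene of type I interferon passed on its brightest probe set, while many factors downstream of them rose. IFNAR1 read 6.36 and 6.47 against 6.40 and 6.04, and its difference of -0.19 did not pass (adjusted p = 0.261). Without the first siRECK array it was -0.37 and passed lower (adjusted p = 0.043). IFNAR2 differed by 0.01 on its brightest probe set and by 1.17 on its other one, and the mean of both passed at 0.59 (adjusted p = 1.22e-04). Of 21 measured receptors, JAK kinases, STATs and interferon regulatory factors, 10 passed higher and 0 lower, with a median of 0.22. IRF7, the factor that amplifies interferon transcription, read 6.54 and 5.93 with siSCR and 10.38 and 10.34 with siRECK, a difference of 4.12 (SE 0.16; adjusted p = 1.95e-09). IRF9, the DNA-binding partner of activated STATs, rose from 8.87 and 8.85 to 10.94 and 11.01. Of the 21 members both siRECK arrays were above both siSCR arrays for 14 and below them for 0, beside 25.6% and 40.0% of all genes tested. IRF1 (2.65), IRF2 (1.98) and the kinase JAK2 (2.78) also rose. STAT3, the transcription factor that the series' title names, rose from 9.90 and 9.82 to 10.81 and 10.85, by 0.97 (SE 0.09; adjusted p = 6.36e-06). IRF3, which is activated by phosphorylation after RNA sensing, differed by 0.53 (adjusted p = 0.018), a call that did not hold without every single array.

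RNA sensors rose together with their targets. Of 16 measured sensors and adaptors of double-stranded RNA and DNA, 12 passed higher and 2 lower, with a median of 2.30. Over all genes 12.0% passed higher and 17.4% lower. IFIH1, encoding MDA5, read 4.39 and 4.20 with siSCR and 11.90 and 12.07 with siRECK. RIGI, encoding RIG-I, read 6.88 and 6.94 against 13.27 and 13.22. TLR3, the endosomal sensor of double-stranded RNA, read 4.01 and 3.88 against 10.26 and 10.27. The measured differences of IFIH1, RIGI and TLR3 were large (7.69, 6.33 and 6.32; SE 0.17, 0.19 and 0.10; adjusted p = 1.5e-11, 1.75e-10 and 8.16e-13). On these probe sets IFIH1 and TLR3 started below the lower quartile and were at least 118-fold and 35.9-fold higher. The other IFIH1 probe set differed by only 2.92, so that bound does not hold for it. EIF2AK2, the kinase PKR that stops translation on binding double-stranded RNA, rose by 2.49, and ADAR, the RNA-editing enzyme that unwinds such RNA, by 2.12. AIM2, a sensor of cytosolic DNA, rose by a measured 4.28 from below the lower quartile, at least 7.3-fold. IFI16, another DNA sensor, rose by 2.83. DHX58, the regulator LGP2, rose by 2.90 and the adaptor MYD88 by 2.59. The 2 members that fell were TRAF3, an adaptor ligase, by -1.13, and MAVS, the mitochondrial adaptor of RIG-I and MDA5, from 8.49 and 8.48 to 7.88 and 8.0 (-0.54, SE 0.11; adjusted p = 0.00241). The other TRAF3 probe set differed by -0.21.

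**Figure D2:**
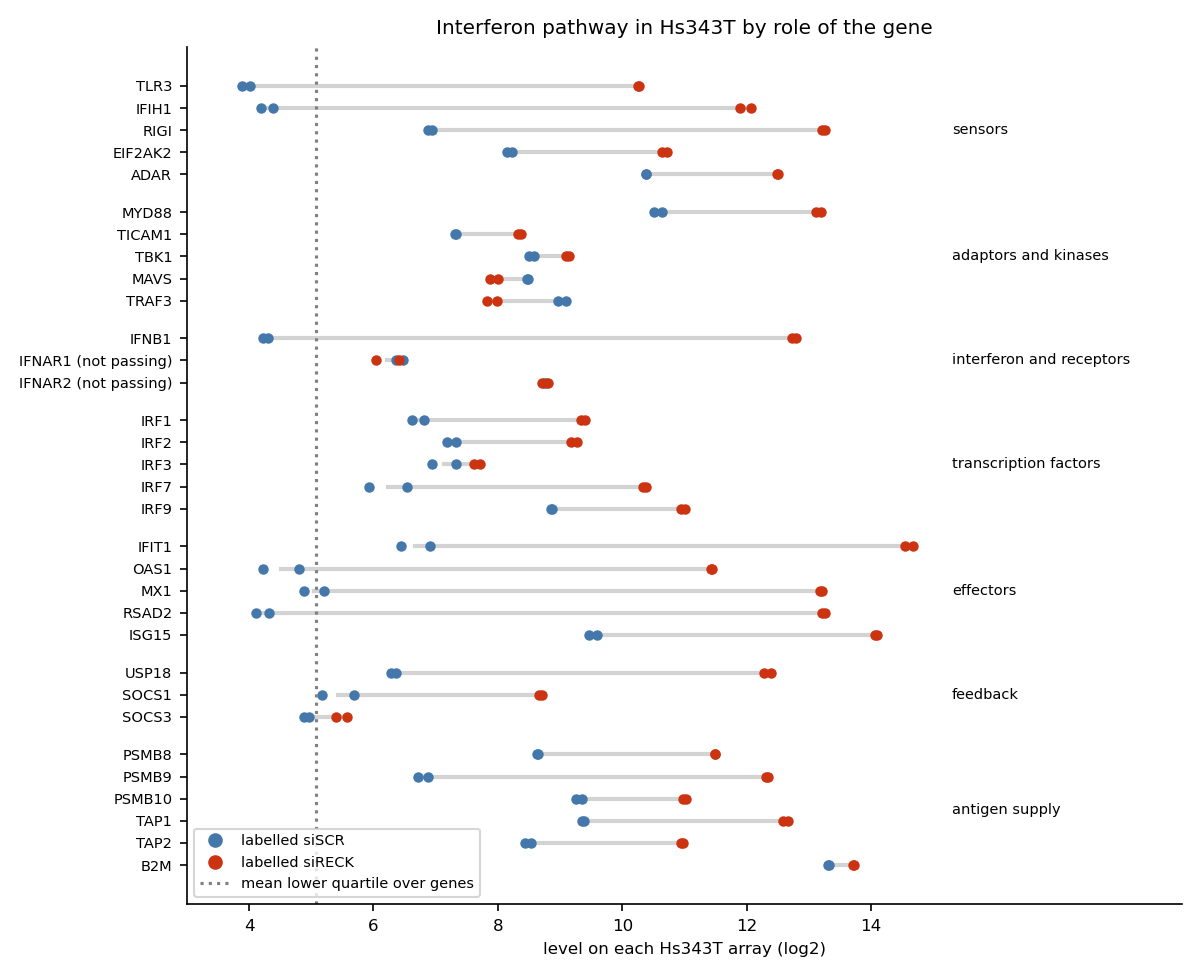
Log2 level on each Hs343T array (horizontal axis; blue, labelled siSCR; red, labelled siRECK) of 32 genes of the interferon pathway ordered by role, with grey bars between group means and a dotted line at the mean lower quartile over genes. Sensors, effectors and antigen supply genes moved right, the receptors did not pass, and MAVS and TRAF3 moved left.

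Effectors of the antiviral state had many of the largest rises. All 8 measured IFIT and OAS genes passed higher, with a median of 6.69, as did 32 of 33 other antiviral effectors, with a median of 4.04. The member without a call was the zinc finger antiviral protein gene ZC3HAV1, at 0.03 on its brightest probe set and at 5.08 on its other one. IFIT1, which binds RNA lacking a host cap, read 6.44 and 6.91 with siSCR and 14.55 and 14.68 with siRECK. IFIT2 (6.73), IFIT3 (6.62) and IFIT5 (1.80) rose as well. OAS1, whose product makes the oligoadenylates that activate RNase L, read 4.80 and 4.23 against 11.42 and 11.44. OASL (7.26), OAS2 (6.65) and OAS3 (5.0) followed. On its brightest probe set OAS2 started below the lower quartile and was at least 80.6-fold higher. The other OAS2 probe set differed by 3.66, so that bound does not hold for it. For all 8 genes both siRECK arrays were above both siSCR arrays, as they were for 25.6% of all genes tested.

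RSAD2, encoding the radical enzyme viperin, read 4.32 and 4.11 on the arrays labelled siSCR and 13.22 and 13.26 on those labelled siRECK. The GTPase gene MX1 read 5.20 and 4.89 against 13.18 and 13.22, and its neighbour in function MX2 5.12 and 5.39 against 12.33 and 12.38. IFI44L went from 4.81 and 4.35 to 12.15 and 12.12. These differences were 9.02, 8.16, 7.10 and 7.56, with adjusted p from 2.16e-13 to 5.63e-11. RSAD2 and IFI44L started below the lower quartile and were at least 282-fold and 132-fold higher. ISG20, an exonuclease of single-stranded RNA, read 5.20 and 5.83 against 12.68 and 12.84. RTP4, a receptor chaperone, read 4.24 and 4.27 against 11.21 and 11.19. The helicase gene DDX60 rose by 5.94, and IFITM1, which hinders the entry of viruses into cells, by 5.54. At the low end of the list were LGALS9 at 0.70 and the cytidine deaminase genes APOBEC3B at 0.73 and APOBEC3C at 0.88. The deaminase gene APOBEC3G rose by 5.02, and its other probe set differed by 0.70.

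Most measured genes of ISG15 conjugation, the attachment of a ubiquitin-like protein to new proteins, rose. ISG15 read 9.59 and 9.46 with siSCR and 14.06 and 14.10 with siRECK, a rise of 4.56 (SE 0.09; adjusted p = 3.44e-12). UBE2L6, its conjugating enzyme, rose by 2.55, and HERC5, its main ligase, went from 4.22 and 4.37 to 11.39 and 11.49. HERC6, a ligase of the same family, read 5.65 and 5.67 against 12.76 and 12.56. USP18 both removes ISG15 and blocks the receptor, and read 6.37 and 6.28 against 12.40 and 12.27. Of 7 members, 6 passed higher, with a median of 4.56, and the ligase gene ARIH1 at -0.18 did not pass. Of the 7 members both siRECK arrays were above both siSCR arrays for 6 and below them for 1, beside 25.6% and 40.0% of all genes tested.

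Feedback inhibitors rose less evenly. Of 11 measured, 6 passed higher and 1 lower, with a median of 0.56. After USP18 (6.01) came TRIM21 (3.79), a ligase that marks regulatory factors for destruction, and the cytokine signalling suppressors SOCS1 (3.26) and SOCS2 (1.88). The 4 SOCS1 probe sets differed in sign, from -0.39 to 3.26. SOCS3, the suppressor induced by STAT3, read 4.89 and 4.96 against 5.39 and 5.57, a rise of 0.56 from below the lower quartile. The phosphatase gene PTPN11, whose probe sets also differed in sign, fell by 0.57.

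Genes of antigen presentation by MHC class I rose, with the largest rises on the side of peptide supply. Of 20 measured members, 16 passed higher and 1 lower, with a median of 1.43. PSMB9, an immunoproteasome subunit, read 6.71 and 6.88 with siSCR and 12.34 and 12.31 with siRECK. PSMB8 read 8.64 and 8.64 against 11.49 and 11.49, and PSMB10 9.26 and 9.35 against 11.02 and 10.97. These 3 catalytic subunits, which replace their standard counterparts, rose by 5.53, 2.85 and 1.69. The peptide transporter genes TAP1 and TAP2 rose by 3.26 and 2.47, and the trimming peptidase ERAP2 by 2.40. ERAP2 started below the lower quartile and was at least 2.18-fold higher. The 3 TAP2 probe sets ran from 0.07 to 2.47. MICB, a ligand of an activating NK receptor, read 9.53 and 9.34 against 11.79 and 11.78, whereas its relative MICA fell by 0.41. HLA-B rose by 1.70 and HLA-F by 1.69, but HLA transcripts are similar enough to share probes. B2M, the light chain of class I molecules, rose from a high level by 0.40.

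Standard proteasome subunits and class II genes differed from this pattern. Of 24 standard subunits, 4 passed higher and 6 lower, with a median of -0.07, beside 12.0% and 17.4% of all genes. The 6 falls became 3 when each array was centred on its median, and were fewer when an array was dropped. The 4 that rose, PSMA4 (0.95), PSMA2 (0.63), PSMA3 (0.49) and PSMA5 (0.43), encode alpha ring subunits, a feature noticed after the values were seen. PSMB5, PSMB6 and PSMB7, encoding the standard catalytic subunits, differed by -0.25, -0.15 and 0.09 and did not pass. Of 13 MHC class II genes, 2 passed higher and 0 lower: the protease gene CTSS by 3.34 and HLA-DOB by 1.02. HLA-DOB started below the lower quartile and was at least 1.80-fold higher. CIITA, the master regulator of class II genes, differed by -0.30 and CD74, the invariant chain, by -0.02, and neither passed.

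Chemokines divided into members that rose by up to 9 units and members that did not pass. CXCL11 read 3.71 and 3.74 on the arrays labelled siSCR and 12.86 and 12.88 on those labelled siRECK, and CXCL10 4.54 and 4.60 against 13.14 and 13.12. Both attract T cells through the receptor CXCR3, and from below the lower quartile they were at least 219-fold and 262-fold higher. The third ligand of that receptor, CXCL9, rose only from 5.31 and 4.71 to 6.41 and 6.89. CCL5, which attracts T cells and monocytes, read 4.97 and 4.27 against 10.79 and 10.79. The monocyte attractant CCL2 rose from 9.64 and 9.78 to 12.65 and 12.62, by 2.93 (SE 0.12; adjusted p = 3.9e-09). CCL20 (2.19), CCL7 (2.05) and CCL4 (1.82) rose too. CCL4 started below the lower quartile and was at least 1.965-fold higher. Of the neutrophil attractants, CXCL1, CXCL2, CXCL3 and CXCL8 differed by -0.09, 0.89, -0.59 and -0.38 and did not pass. The other CXCL8 probe set differed by -1.08. Of 23 measured chemokines, 9 passed higher and 1 lower, with a median of 0.08, beside 12.0% and 17.4% of all genes. The fall, in CXCL6 (-0.59), was not called once any single array was dropped.

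Cytokines that sustain lymphocytes and myeloid cells rose selectively. IL7, a survival factor of T cells, read 3.96 and 4.23 with siSCR and 8.64 and 8.73 with siRECK. IL15 went from 8.51 and 8.41 to 10.76 and 10.90, and IL15RA, the chain that presents it to NK and T cells, from 7.59 and 6.84 to 10.94 and 11.10. CSF1, the macrophage growth factor, rose by 3.03, with 4 probe sets running from -0.13 to 3.03. The adhesion molecules VCAM1 and ICAM1, which hold leukocytes, rose by 3.37 and 2.43. VCAM1 started below the lower quartile and was at least 5.32-fold higher. Of 29 members, 13 passed higher and 2 lower, with a median of 0.19, beside 12.0% and 17.4% of all genes. The 2 falls, in the interleukin-1 genes IL1A (-1.03) and IL1B (-1.01), were not called once any single array was dropped. TNF, a cytokine mostly of macrophages, differed by -0.08 and did not pass.

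NF-kB drives inflammatory genes and also its own inhibitors, and subunits and inhibitors both rose. NFKBIA, the inhibitor that NF-kB induces, read 9.10 and 9.07 against 11.66 and 11.64. TNFAIP3, the ubiquitin-editing enzyme A20, read 9.47 and 9.46 against 12.06 and 12.02. Both rose by 2.57 (SE 0.13 and 0.10; adjusted p = 2.09e-08 and 1.83e-09), TNFAIP2 by 2.53 and the adaptor TRAF1 by 1.95. The other TNFAIP2 probe set differed by 0.45. The subunit RELA rose by 1.31 and NFKB1 by 0.81. Of 18 members, 11 passed higher and 0 lower, with a median of 0.65, beside 12.0% and 17.4% of all genes. Immediate early genes, the first responders to many stimuli, passed higher in 15 of 23 and lower in 1, with a median of 0.58, and the fall was not called once any single array was dropped. FOS (1.72), NR4A2 (1.58), EGR1 (1.56) and JUNB (1.53) led them by measured values, while JUN at 0.03 and MYC at 0.27 did not pass. FOS and NR4A2 started below the lower quartile and were at least 2.8-fold and 2.6-fold higher.

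**Figure D3:**
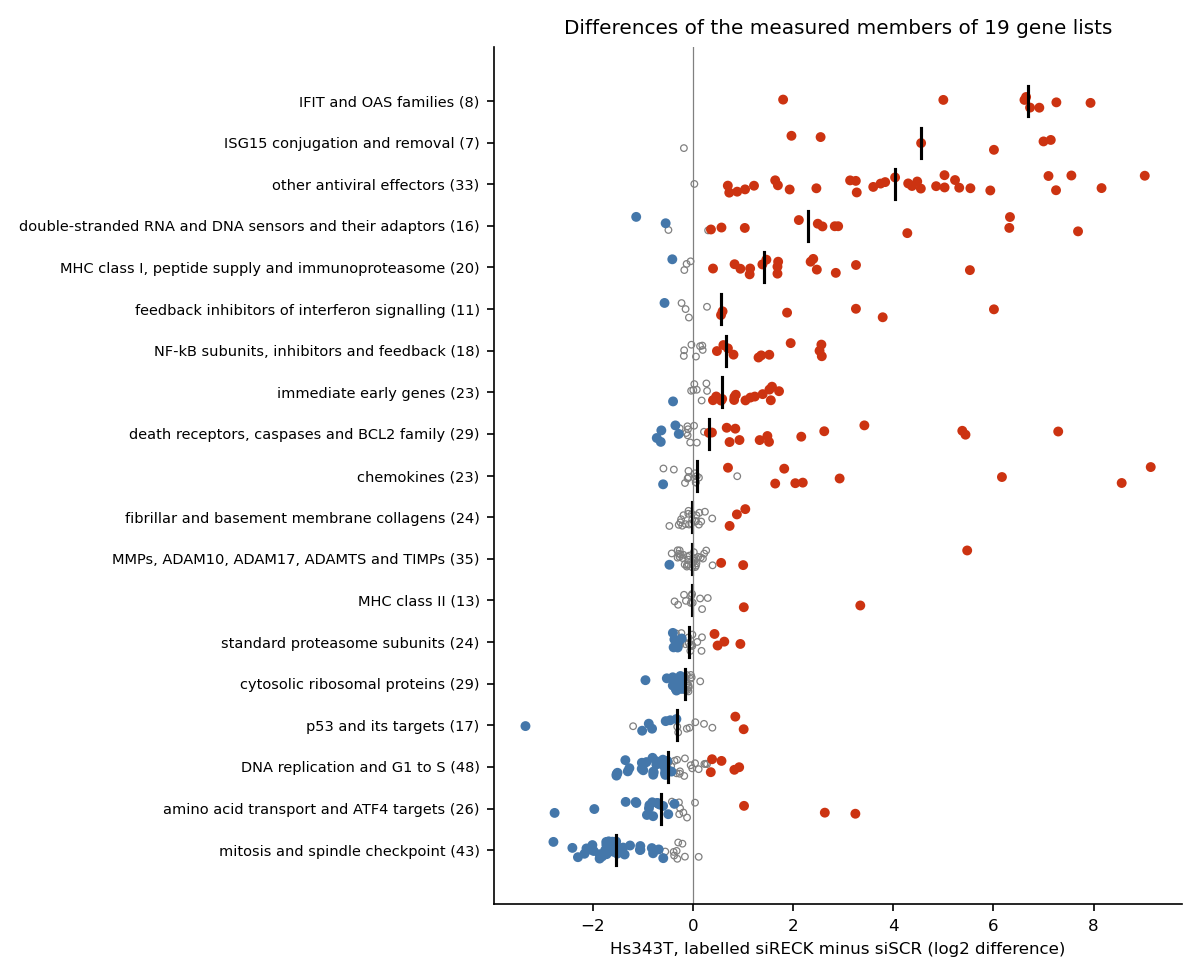
Difference of each measured member (points) of 19 gene lists in Hs343T, labelled siRECK minus siSCR on the log2 scale, with the list median (black bar) and the number of members in parentheses. Filled points passed (red, higher; blue, lower) and open points did not. Medians run from 6.69 for the IFIT and OAS families to -1.53 for mitosis.

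Genes of cell death moved in both directions. TNFSF10, encoding the death ligand TRAIL, read 3.41 and 3.13 with siSCR and 10.57 and 10.56 with siRECK. PMAIP1, the BH3-only protein NOXA, went from 7.44 and 7.68 to 13.04 and 12.97, and CASP1, the inflammasome protease, from 6.42 and 6.42 to 11.77 and 11.83. The initiator caspase CASP10 rose by 2.62, the survival gene BCL2A1 by 3.42 and CFLAR, which restrains caspase-8, by 2.16. The probe sets of CASP10 ran from 0.13 to 2.62 and those of CFLAR from 0.04 to 2.39. Of 29 members, 15 passed higher and 5 lower, with a median of 0.32, beside 12.0% and 17.4% of all genes. The share of falls was near that of all genes. Falls included the death effector BAX (-0.64) and the initiator caspase CASP9 (-0.35), and without the first siRECK array 2 falls were counted. The TRAIL receptor gene TNFRSF10B differed by 0.22 on its brightest probe set and did not pass, and its 3 probe sets ran from 0.22 to 0.75.

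Metabolic enzymes tied to interferon gave some of the largest rises outside the antiviral lists. IDO1, which degrades tryptophan to kynurenine, read 6.35 and 6.11 against 12.50 and 12.61, a rise of 6.32 (SE 0.12; adjusted p = 3.94e-12). WARS1, the tryptophan tRNA ligase, read 10.91 and 10.88 against 14.09 and 14.18. GCH1, the first enzyme of tetrahydrobiopterin synthesis, rose by 4.53, and CH25H, which makes the antiviral oxysterol 25-hydroxycholesterol, by 3.93. Of 19 members, 8 passed higher and 2 lower, with a median of 0.25, beside 12.0% and 17.4% of all genes. The later kynurenine enzymes KMO (-0.02) and HAAO (0.01) did not pass. The apolipoprotein L genes APOL3 (4.47), APOL1 (4.02), APOL6 (3.74) and APOL2 (3.22) rose, while the lysosomal protease CTSL fell by 1.35. Complement genes passed higher in 7 of 17 and lower in 1, beside the same shares of all genes. They were led by the receptor gene C3AR1 (3.86) and factor B, CFB (2.91), and C3 differed by -0.03. The other CFB probe set differed by 0.18.

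Genes of mitosis fell as a group. Of 43 measured members, 0 passed higher and 34 lower, with a median of -1.53, and for 41 both siRECK arrays were below both siSCR arrays, as they were for 40.0% of all genes tested. BUB1B, a kinase of the spindle checkpoint, read 7.59 and 7.48 with siSCR and 4.75 and 4.76 with siRECK, the latter below the lower quartile. TOP2A, which untangles DNA before chromosomes part, read 8.33 and 8.62 against 6.36 and 6.01. CDK1, the kinase that starts mitosis, read 8.92 and 8.84 against 6.85 and 6.58. These falls were -2.78, -2.29 and -2.16 (SE 0.14, 0.29 and 0.10; adjusted p = 1.7e-08, 6.93e-05 and 1.09e-08). DLGAP5 (-2.41) and NEK2 (-2.12), which act at the spindle and the centrosome, and ASPM (-2.04) also fell. The other NEK2 probe set differed by -0.19. MKI67, the source of the proliferation antigen Ki-67, read 6.23 and 6.35 against 6.0 and 6.0, and its difference of -0.29 did not pass (adjusted p = 0.42), with probe sets that differed in sign. It passed in the fit of the 4 Hs343T arrays alone (adjusted p = 0.0499). In bulk RNA, fewer cells in mitosis and less RNA per mitotic cell cannot be told apart.

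Many mitotic promoters share the cell cycle homology region, searched as TTTGAA, and CCAAT boxes. TTTGAA was in 18.2% of all genes and in 24 of 35 matched members of the mitosis list (68.6%), and CCAAT in 39.7% and in 30 of 35 (85.7%). In the 40 matched genes of DNA replication TTTGAA was in 2 (5%). Shown for the motif are the 240 bases before the starts of BUB1B (chr15:40160829-40161068, plus strand) and CCNB2, a mitotic cyclin (chr15:59104906-59105145, plus strand), with TTTGAA in capitals.
BUB1B: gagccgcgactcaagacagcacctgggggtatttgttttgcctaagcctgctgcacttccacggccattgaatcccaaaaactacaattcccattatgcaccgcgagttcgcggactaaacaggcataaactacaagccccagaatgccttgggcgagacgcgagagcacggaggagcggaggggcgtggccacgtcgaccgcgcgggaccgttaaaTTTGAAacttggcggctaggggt
CCNB2: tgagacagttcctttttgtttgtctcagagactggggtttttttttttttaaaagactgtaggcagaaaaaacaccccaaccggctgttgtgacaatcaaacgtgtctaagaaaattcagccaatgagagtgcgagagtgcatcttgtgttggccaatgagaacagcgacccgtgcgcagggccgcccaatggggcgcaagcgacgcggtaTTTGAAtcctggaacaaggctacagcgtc
The match ended 18 bases before the start in BUB1B and 24 bases before it in CCNB2. CCNB2 fell by 1.73.

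DNA replication and the entry into S phase showed smaller falls. Of 48 members, 5 passed higher and 25 lower, with a median of -0.51, beside 12.0% and 17.4% of all genes. The share of rises was near that of all genes, and rises were fewer without the first siSCR array. CDK4, the kinase of the G1 phase, read 10.51 and 10.52 against 8.92 and 9.05, a fall of -1.53 (SE 0.08; adjusted p = 2.94e-08). GINS2 (-1.52) and MCM10 (-1.51), parts of the replication machinery, and the clamp loader subunit RFC4 (-1.35) fell as well. CCND3, a cyclin partner of CDK4, rose by 0.92, and CCND1, its relative, differed by -0.16 and did not pass. CDKN1A, encoding the cell cycle inhibitor p21, read 11.98 and 12.08 against 11.73 and 11.71, with no call (-0.31; adjusted p = 0.42). It passed when only the siRNA arrays were fitted (adjusted p = 0.019), and in the fit of the 4 Hs343T arrays alone (adjusted p = 0.0351).

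Of 17 measured genes of the p53 list, 2 passed higher and 7 lower, with a median of -0.31, beside 12.0% and 17.4% of all genes. Most of the list are targets that p53 activates under stress. ZMAT3, an RNA-binding target of p53, read 9.80 and 9.83 on the arrays labelled siSCR and 6.40 and 6.55 on those labelled siRECK, a fall of -3.34 (SE 0.13; adjusted p = 1.41e-09). DDB2, a DNA repair protein, fell by 1.01, SESN1 by 0.88 and CCNG1 by 0.82. GADD45A rose by 1.01 and FAS, a death receptor, by 0.85. MDM2, the main inhibitor of p53, differed by 0.05 and did not pass.

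The remaining largest falls came from varied genes. CERK, which phosphorylates ceramide, read 9.38 and 9.16 against 5.87 and 5.58, 11.7-fold lower (SE 0.12 on the log2 scale; adjusted p = 5.07e-10). NT5DC2 read 9.79 and 9.79 against 6.97 and 6.88. ADGRA3, an adhesion receptor, read 7.79 and 7.90 against 4.94 and 5.14. CNIH3, an auxiliary protein of glutamate receptors, read 8.22 and 8.15 against 5.30 and 5.46. FAM171A1 read 10.88 and 10.88 against 8.19 and 8.33. In all 5 the groups were separated by over 2 units, but these genes were chosen for large falls with groups fully apart. CPEB1, a regulator of mRNA polyadenylation, read 7.59 and 8.10 against 5.21 and 5.26. APPL2, an endosomal adaptor, fell by 2.56, RGCC, a cell cycle regulator, by 2.54, RASSF2, a RAS-binding protein, by 2.52 and the non-coding RNA gene DLEU1 by 2.45.

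**Figure D4:**
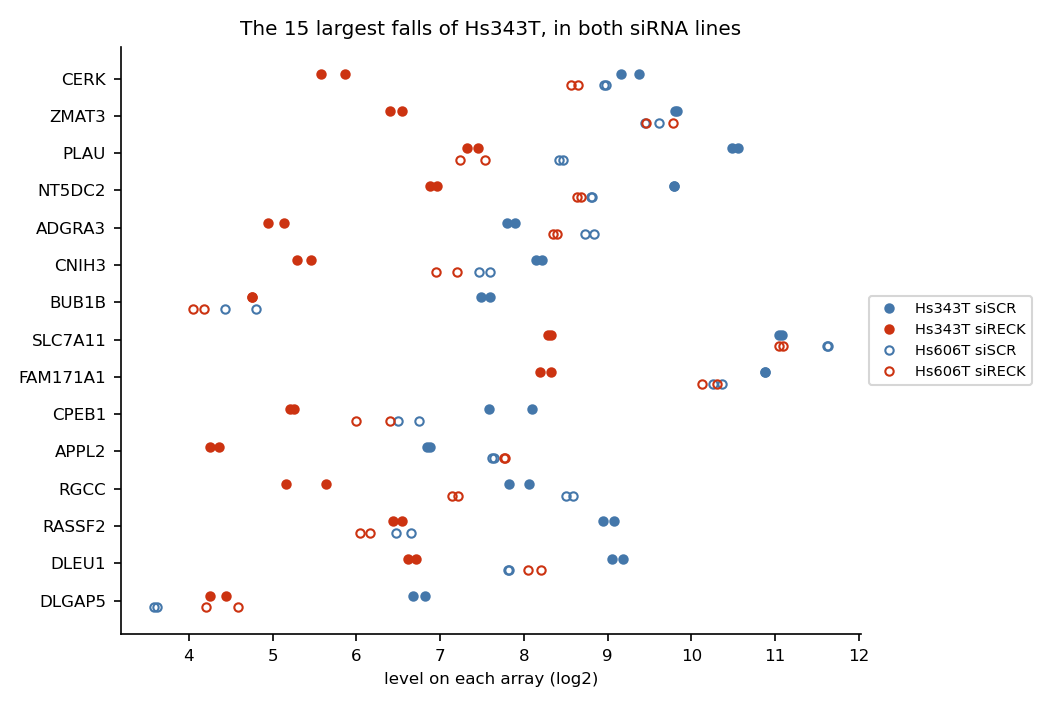
Log2 level on each array (horizontal axis) of the 15 genes with the largest falls in Hs343T, with filled points for Hs343T and open points for Hs606T (blue, labelled siSCR; red, labelled siRECK). In Hs343T the groups were apart for all 15, as the choice of these genes required. In Hs606T the levels of ZMAT3 were 9.61 and 9.45 against 9.78 and 9.46.

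Most measured genes of amino acid supply fell. SLC7A11, the cystine importer, read 11.05 and 11.08 against 8.29 and 8.32, a fall of -2.76 (SE 0.10; adjusted p = 9.94e-10). Its 3 probe sets ran from -2.86 to -0.70. Of 26 members of the list of amino acid transport and ATF4 targets, 3 passed higher and 16 lower, with a median of -0.63. Over all genes 12.0% passed higher and 17.4% lower. DDIT4, a stress-induced inhibitor of mTORC1, fell by 1.97 and PSPH, an enzyme of serine synthesis, by 1.13. The calls of TRIB3 (-1.34) and CHAC1 (-1.14) did not hold in leave-one-out fits. The members that rose were WARS1, given above, and the factors ATF3 (2.63) and ATF5 (1.02). The 3 ATF5 probe sets ran from -0.06 to 1.02. ATF4 itself differed by -0.12 and did not pass.

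Ribosomal genes shifted by small amounts. Of 29 cytosolic ribosomal protein genes, 0 passed higher and 13 lower, with a median of -0.16, beside the median of -0.06 over all genes. With each array centred on its median 8 members passed lower, and fewer than 13 did without the second siRECK array or either siSCR array. RPL10A, part of the large subunit, read 12.74 and 12.73 against 11.79 and 11.79, a fall of -0.95. Of 22 genes of ribosome biogenesis, 2 passed higher and 10 lower, with WDR12, a factor of large subunit assembly, at -1.20. Fewer rises were counted without the second siRECK or the first siSCR array.

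Matrix proteases and their inhibitors, the family RECK acts on, differed little apart from RECK. Of 35 MMPs, ADAM10, ADAM17, ADAMTS proteases, TIMPs and RECK, 3 passed higher and 1 lower, with a median of -0.01. Over all genes 12.0% passed higher and 17.4% lower. Besides RECK, ADAM17, the sheddase of TNF, read 8.87 and 8.76 against 9.79 and 9.85 and rose by 1.0 (SE 0.09; adjusted p = 4.44e-06). The calls of ADAMTS3 (0.56) and ADAMTS12 (-0.47) did not hold in leave-one-out fits, and the falls in the list numbered from 0 (centred arrays) to 4 (without 2 deviating arrays of the invasive lines). MMP2, the gelatinase of fibroblasts, read 12.25 and 12.26 against 12.27 and 12.30. MMP14, the membrane metalloproteinase that activates it, read 10.99 and 11.00 against 10.89 and 10.85. Neither passed, nor did ADAM10 (0.16). MMP9, a gelatinase, read 6.77 and 5.91 against 6.27 and 5.92 with no call (-0.24), but 1 siSCR array decided that value: it was 0.19 without the first, and -0.67 with a call without the second (adjusted p = 0.0242). PLAU, encoding the plasminogen activator urokinase, read 10.49 and 10.56 against 7.32 and 7.45, a fall of -3.14 (SE 0.27; adjusted p = 2.66e-06) seen at both its probe sets (-2.65 and -3.14). Its receptor gene PLAUR rose by 0.88, with probe sets that differed in sign, and the tissue activator PLAT differed by 0.03.

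Collagen genes were mostly without a call. Of 24 measured, 3 passed higher and 0 lower, with a median of -0.02, beside 12.0% and 17.4% of all genes. COL4A1 and COL4A2, the chains of the common basement membrane collagen, read 9.70 and 9.62 against 10.67 and 10.74, and 9.91 and 9.82 against 10.60 and 10.61. They rose by 1.05 and 0.73. The fibrillar chains COL1A1 (0.24), COL1A2 (-0.02) and COL3A1 (-0.09) did not pass. Of 35 other matrix proteins and collagen-modifying enzymes, 0 passed higher and 7 lower, led by POSTN at -0.73, a share near the 17.4% of all genes that fell, and 3 or 4 passed when 1 array was left out. Contractile and SRF or YAP target genes passed higher in 8 of 23, with the vasoconstrictor EDN1 (1.97) and ANKRD1 (1.94) first, and 5 did without the first siSCR array.

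Growth factors and signalling receptors moved individually. FGF1 read 7.43 and 7.54 with siSCR and 10.02 and 9.98 with siRECK, and FGF2 11.06 and 10.85 against 12.25 and 12.31. The other FGF2 probe set differed by 0.58. VEGFA, the main angiogenic factor, read 12.01 and 11.98 against 11.03 and 11.06. Its fall of -0.95 (adjusted p = 0.0245) was not called in leave-one-out fits or with the mean of its probe sets (-0.62; adjusted p = 0.081). NRP1, a co-receptor of VEGF, fell by 0.99 and PDGFRA, a receptor of fibroblasts, by 0.94. Their probe sets ran from -0.99 to -0.05 and from -0.94 to -0.17. BAMBI, a decoy receptor of the TGF-beta family, read 8.84 and 8.79 against 11.45 and 11.49, while the ligand BMP2 fell by 2.36 and the signal transducer SMAD3 by 1.74. The 4 SMAD3 probe sets ran from -1.74 to -0.10. JAG1, a Notch ligand, rose by 1.67, with 4 probe sets running from 0.25 to 2.49. In growth factors and receptors 6 of 34 passed higher and 7 lower, beside 12.0% and 17.4% of all genes, and 4 passed lower without either siRECK array. In the TGF-beta family, beside the same shares of all genes, 3 of 26 passed higher and 3 lower, or 6 lower when only the siRNA arrays were fitted.

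The difference between arrays with the same pair of siRNA labels, here called the response, was smaller in Hs606T. There 143 genes passed (1.20%), 97 higher (0.811%) and 46 lower (0.385%), and the mean correlation between the groups was 0.996. Of the genes that rose in Hs343T, 57 rose in Hs606T too, which is 3.98% of the Hs343T rises and 58.8% of the Hs606T rises. Falls shared 19 genes, 0.914% and 41.3% of them. The difference of the responses was tested directly, Hs606T minus Hs343T, and passed for 2436 genes (20.4%), 1393 with a higher (11.6%) and 1043 with a lower value (8.72%). Of the 1432 Hs343T rises 965 were smaller in Hs606T by this test, and of the 2079 falls 1307 had a higher value there.

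IFNB1 passed in Hs343T and not in Hs606T, and the responses differed by the test. IFNB1 read 3.87 and 4.15 with siSCR and 4.21 and 4.33 with siRECK in Hs606T, all below the lower quartile of the Hs343T arrays, a difference of 0.26 (adjusted p = 0.406). The 2 responses differed by -8.25 (SE 0.16; adjusted p = 3.81e-11). Antiviral effectors did rise in Hs606T: IFIT1 read 8.94 and 8.86 against 12.06 and 12.02 (3.14), and its response was smaller by -4.80 (SE 0.24; adjusted p = 4.81e-08). On the siSCR arrays IFIT1 was at 6.44 and 6.91 in Hs343T, below both Hs606T values. MX1 was likewise at 5.20 and 4.89 in Hs343T and at 9.41 and 9.22 in Hs606T with siSCR. Of the 8 IFIT and OAS genes 7 passed higher in Hs606T, of 33 other antiviral effectors 12, of 20 class I genes 0, and of 23 chemokines 1, CXCL10 at 1.79. In the mitosis list 1 passed higher and 1 lower in Hs606T, and the responses differed in 33 of 43 genes, with higher values in Hs606T. CDK1, for example, differed by 0.32 there (adjusted p above the threshold).

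**Figure D5:**
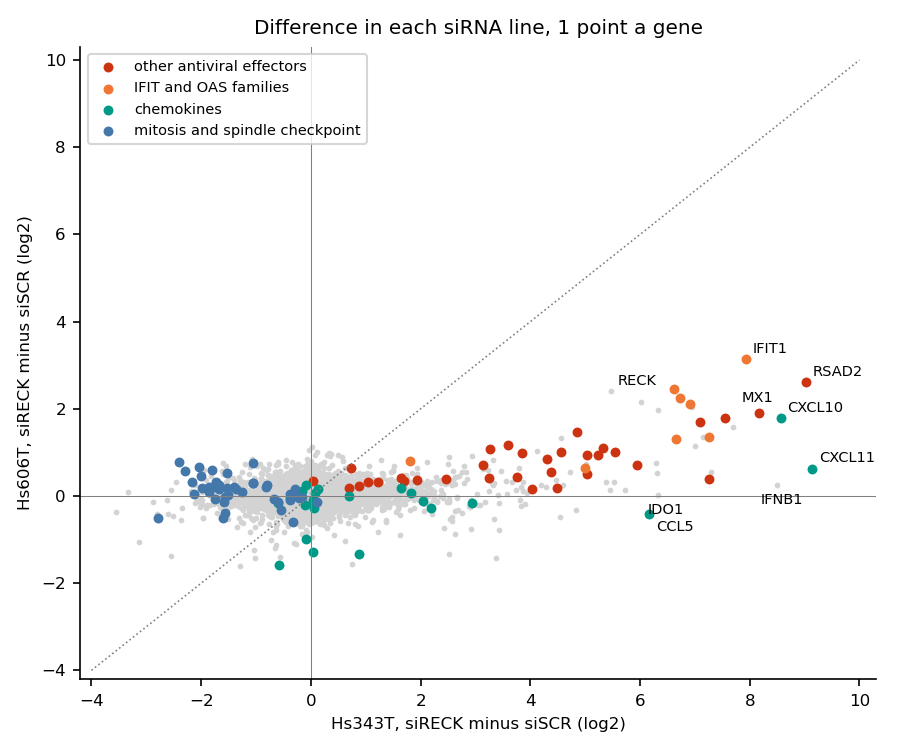
Difference between arrays labelled siRECK and siSCR on the log2 scale in Hs343T (horizontal axis) and Hs606T (vertical axis), one point a gene, with 4 lists coloured and a dotted line of equal differences. Antiviral genes lie below the dotted line, with IFIT1 at 7.94 and 3.14, and IFNB1 at 8.50 and 0.26.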

How the data were processed

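The deposited table holds log2 values of 22277 probe sets on 16 arrays, made by the authors with Partek per the submitters' processing notes. Partek's version is not given in the sources used here, nor are the probe summary and the scaling. Values were not rescaled. Of 19064 probe sets with exactly 1 gene symbol, the one with the highest mean over the 16 arrays stood for each of 11963 genes, while 2164 probe sets were unlisted and their genes were not analysed here. limma 3.58.1 (R 4.3.3) fitted 8 group means to all 16 arrays (8 residual and 3.72 prior degrees of freedom), and tests were 2-sided with Benjamini-Hochberg adjustment over all genes. Tables and motif searches used numpy 2.4.6 and pandas 2.3.3 under Python 3.11.15, with figures from matplotlib 3.10.9.

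The arrays, gene lists and tests were chosen with earlier results of these data known. Named genes are RECK, the 15 rises and 15 falls of largest size whose groups are fully apart, the 6 strongest differences between lines each way, up to 6 passing members of each list and 24 genes whatever their values, besides members named for what they are. List members without a named probe set were not analysed here. Lists are described by counts and medians, with no test of a list.

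On simulated data for this comparison (11963 genes, 200 changed), 54% of 1.5-fold, 88% of 2-fold and 100% of 4-fold and 8-fold changes were recovered, with 9 false calls. Alternatives were quantile normalization, centring, the mean of all probe sets, each probe set alone, leaving out the dimmest genes, trend and robust eBayes, only the Hs343T or siRNA arrays, a replicate block, a 1.5-fold minimum, leaving out each array, and, chosen after seeing the data, leaving out 2 arrays of the invasive lines that deviate together. The number of arrays limits the precision. Deviations of same-numbered arrays from their group means correlated at -0.05 over genes in Hs343T. With 2 arrays a group this is 1 value, which cannot tell whether the numbers pair the arrays.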

Additional observations from a re-analysis of the deposited data

Results flagged for a closer look

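The difference between the responses of the 2 siRNA lines, Hs606T minus Hs343T, passed limma's test with Benjamini-Hochberg adjustment for 2436 of 11963 genes. The largest measured negative differences were in the chemokine CXCL11 (-8.52), IFNB1 (-8.25), the exonuclease ISG20 (-6.86), CXCL10 (-6.77), the death ligand TNFSF10 (-6.75) and the chemokine CCL5 (-6.59), which rose in Hs343T. All but ISG20 lay below the lower quartile on the Hs343T siSCR arrays, where levels cannot be told from background, so that their size and order are those of measured values. Among these 6, only CXCL10 passed higher in Hs606T. The largest positive differences were in ZMAT3 (3.43), DLGAP5 (3.19), CERK (3.18), TOP2A (2.87), DLEU1 (2.77) and NT5DC2 (2.72), which fell in Hs343T and did not pass in Hs606T. Within a group of 2 arrays it cannot be told which of them stands apart.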

How the results depend on the processing

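With a minimum of 1.5-fold, the genes passing in Hs343T became 1808 (895 higher, 913 lower). Without each Hs343T array in turn they ranged from 2633 to 2669, those of the difference between lines from 1851 to 2014, and RECK from 5.20 to 5.75. With the replicate number as a block, 3477 genes passed in Hs343T and 2442 in the difference. Centring each array gave 1602 rises and 1678 falls, leaving out the 2 arrays of the invasive lines that deviate together gave 4292 genes, and the mean of all probe sets gave RECK as 2.07. Under the other alternatives the counts stayed within 1.5 times and RECK passed. Of 233 passing genes that the rule could name, 30 lost the call when 1 Hs343T array was left out, and no direction turned among passing genes. Groups hold 2 arrays, which limits the precision.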

Other observations

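Further lists moved member by member in Hs343T, and their counts stand beside 12.0% of all genes higher and 17.4% lower. Among heat shock genes, 2 of 22 passed higher and 6 lower, and 1 passed higher once any single Hs343T array was dropped. DNAJA1, a co-chaperone, read 11.72 and 11.60 on the arrays labelled siSCR and 12.77 and 12.88 on those labelled siRECK, while the inducible gene HSPA6 read 8.51 and 8.32 against 7.07 and 7.18. In glycolysis, 4 of 22 passed higher and 2 lower, with the hexokinase gene HK2 up by 1.04 and the glucose transporter gene SLC2A3 down by -0.90. Without the first siRECK array or the first siSCR array, 2 rises were counted in glycolysis, and without the former 1 fall.

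In cholesterol synthesis, 3 of 16 passed higher and 4 lower, beside 12.0% and 17.4% of all genes. HMGCS1, an early enzyme, differed by 1.05 and PMVK by -0.73. Among sphingolipid and fatty acid enzymes, 4 of 22 passed in each direction, beside the same shares of all genes. SPTLC2, a subunit of the first sphingolipid enzyme, read 10.44 and 10.35 against 11.95 and 11.93. Its 4 probe sets ran from 0.04 to 1.54. The prostacyclin receptor gene PTGIR rose by 1.07, and the synthases PTGS1 (-0.29) and PTGS2 (0.29) did not pass. The keratin gene KRT14 read 6.6 on both siSCR arrays and 8.9 on both siRECK arrays, while KRT18 fell by 1.08.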
